A study of Mus musculus with 8 samples.

Results

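The genes of the endocannabinoid system described here are 6 of the 55188 genes measured in mouse hippocampus. They were taken by gene symbol, by a rule that uses no measured value: Cnr1, which encodes the CB1 cannabinoid receptor; Dagla and Daglb, which encode the diacylglycerol lipases alpha and beta; Mgll, which encodes monoacylglycerol lipase; Napepld, which encodes the phospholipase D that acts on N-acyl phosphatidylethanolamines; and Faah, which encodes fatty acid amide hydrolase. That rule reads no value, but the genes were chosen with earlier results of these data known. All 6 had a value with the status OK in every library and passed the minimum level for testing.

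Gene expression was measured by RNA-seq of total RNA from the hippocampus of C57BL/6 mice before fear conditioning. Wild-type animals (WT) were set against animals labelled knockout (KO) for Pyk2, the calcium-activated tyrosine kinase that Ptk2b encodes, with 2 numbered animals a group (WT1, WT2, KO1 and KO2) and 2 technical libraries of each, so 8 libraries from 4 animals. The labels call all of the mice transgenic and give neither the deleted part of Ptk2b, nor age, sex or housing, and they do not say whether a number stands for 1 mouse or a pool. The p-values below therefore measure only the spread between these numbered samples, called animals here.

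Endocannabinoids are lipid messengers made on demand in the membrane of the postsynaptic neuron. The messenger 2-arachidonoylglycerol (2-AG) is cut from diacylglycerol by diacylglycerol lipase, crosses the synapse backwards, activates CB1 receptors on the presynaptic terminal, which lowers transmitter release, and is hydrolysed there by monoacylglycerol lipase. The related messenger anandamide is released from a phospholipid precursor, in part by the product of Napepld, and is hydrolysed by fatty acid amide hydrolase. In the hippocampus CB1 is densest on the terminals of interneurons that contain cholecystokinin (Cck), and excitatory neurons carry lower amounts.

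Expression is given in FPKM, a fragment count divided by transcript length and by library size, which permits levels of different genes to be set side by side. Differences between groups are on the log2(FPKM + 1) scale, labelled KO minus WT, which understates the difference of low genes. They come from limma fitted to the 4 animals over all 16667 genes with at least 0.5 FPKM in 2 animals, with Benjamini-Hochberg adjustment over those genes and a threshold of 0.05. The FPKM of a library summed to between 489121 and 506216, with 26482 to 27871 genes above 0, and the deposited confidence limits implied roughly 11.3 to 14.1 M fragments a library. Ptk2b itself was not lower in the animals labelled KO: its level was 232 FPKM in WT1, 202 in WT2, 278 in KO1 and 269 in KO2, a log2 difference of 0.34 (SE 0.07, limma adjusted p 0.158). As the deleted part of Ptk2b is not given, the level of its transcript cannot serve as a check of the label. Every direction below is therefore that of the libraries labelled KO.

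A pair of genome stretches is shown because the transcripts of Cnr1 and Mgll differed in opposite directions between the animals of a group, as described below. Each is the 250 bases before the most upstream start that RefSeq annotates for the gene (GRCm38.p6, 5′ to 3′ on the gene's strand). Capitals mark the GC box GGGCGG and the E box CACGTG, each read on either strand. The Cnr1 window is chr4:33924014-33924263 and the Mgll window is chr6:88724162-88724411, both on the forward strand.
Cnr1: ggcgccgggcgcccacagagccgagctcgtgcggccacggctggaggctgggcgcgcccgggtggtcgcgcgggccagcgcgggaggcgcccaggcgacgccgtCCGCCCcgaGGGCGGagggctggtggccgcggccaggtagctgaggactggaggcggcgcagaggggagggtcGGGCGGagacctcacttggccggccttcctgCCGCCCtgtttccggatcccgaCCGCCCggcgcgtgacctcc
Mgll: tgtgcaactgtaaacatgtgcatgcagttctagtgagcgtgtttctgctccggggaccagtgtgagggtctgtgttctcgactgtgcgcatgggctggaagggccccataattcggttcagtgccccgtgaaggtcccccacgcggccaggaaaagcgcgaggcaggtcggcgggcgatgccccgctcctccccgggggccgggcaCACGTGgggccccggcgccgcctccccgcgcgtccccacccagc

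The Cnr1 window was 79.2% G and C with 36 CpG, and it held 5 GC boxes, marked above. The Mgll window was 68.0% G and C with 23 CpG, and it held the CACGTG hexamer and no GC box. Over the 27025 genes with such a window, a set without the genes of chr18, the median was 52.0% G and C with 6 CpG. A GC box was present in 33.0% of these windows and CACGTG in 6.04%. Of the other members with an entry, Faah held 2 GC boxes (55.6% G and C), Daglb none (49.2%) and Napepld none (69.6%). None of the 5 windows of the matched members held TGACG, the core of the cAMP response element, which occurred in 17.8% of windows on either strand. Nor did any hold the TATA box TATAAA (13.0% of windows) or the CCAAT box (34.5%). These matches are letters in the sequence and say nothing of which factor binds.

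Cnr1 (ENSMUSG00000044288, chr4:33924593-33948831 in mm10, forward strand) is protein-coding, with 3 transcripts in GENCODE M21 and no overlapping gene. Its level was 26.8 and 26.2 FPKM in the libraries of WT1, 29.7 and 30.4 in those of WT2, 28.5 and 27.3 in those of KO1, and 32.1 and 31.8 in those of KO2. The animals numbered 2 were the higher of each group, by 13.3% in WT and by 14.5% in KO, and the groups overlapped. These steps between animals of 1 group were larger than the largest difference between technical libraries of an animal, 4.36%. The deposited confidence limits of the 2 animals, whose level is not stated, did not overlap in any of the 4 pairs of libraries in WT, nor in KO. The mean was 28.3 ± 2.50 FPKM in WT and 29.9 ± 2.86 in KO (SD, n = 2 each), a log2 difference of 0.08 (SE 0.09, 95% interval -0.15 to 0.31, limma adjusted p 0.724). The difference between the groups was thus smaller than that between the animals of either group.

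**Figure D1:**
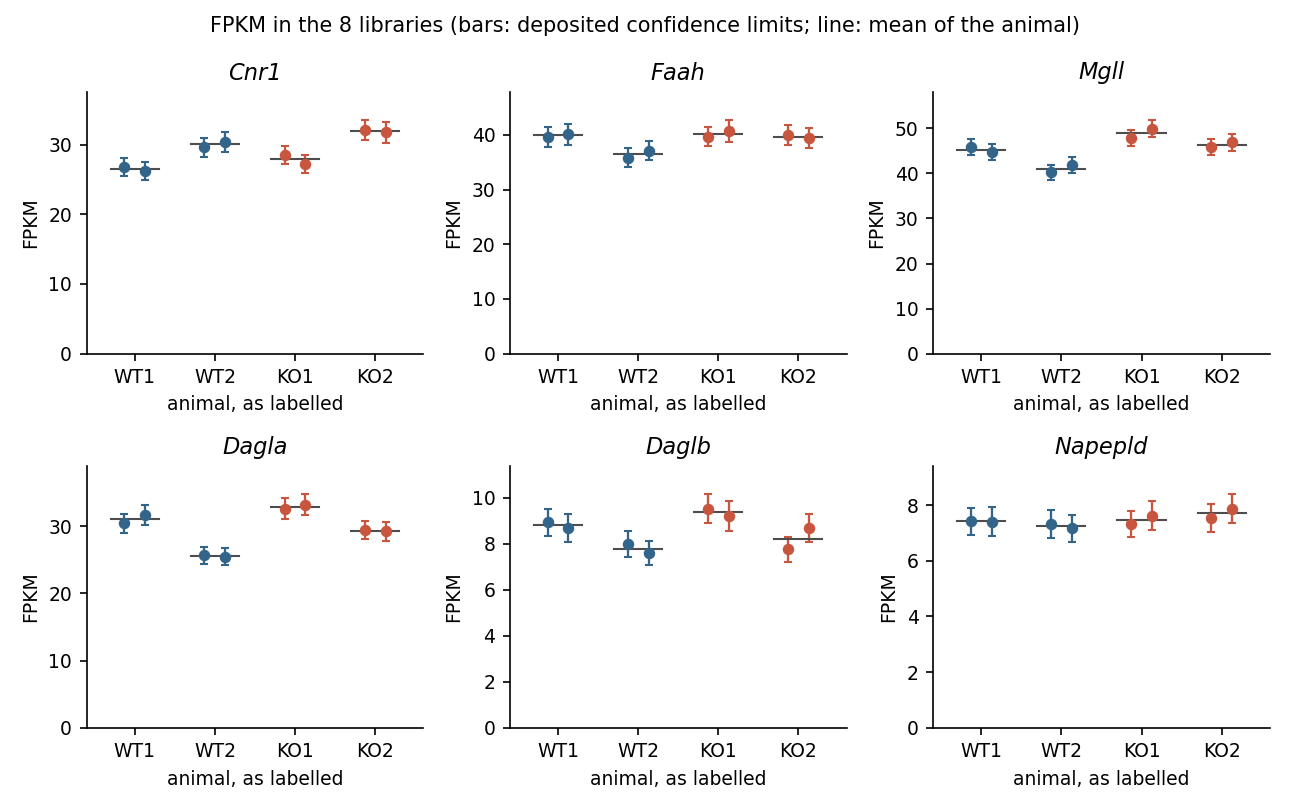
FPKM of the 6 genes in the 8 libraries, by animal (blue WT, red labelled KO); bars are the deposited confidence limits, and the line is the mean of the animal. Cnr1 ran from 26.2 to 32.1 FPKM with the animals numbered 2 the higher in each group, and Dagla from 25.5 to 33.2 FPKM with the animals numbered 2 the lower.

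The transcripts of the enzymes that make 2-AG differed more than 3-fold in deposited level, with that of Daglb uncertain, as given below. Dagla (ENSMUSG00000035735, chr19:10245265-10304877, reverse strand), whose product makes most of the 2-AG used at synapses, stood at 30.4 and 31.7 FPKM in WT1, 25.6 and 25.5 in WT2, 32.6 and 33.2 in KO1, and 29.4 and 29.3 in KO2. Here the animals numbered 2 were the lower of each group, by 17.7% in WT and 10.9% in KO, so the order within each group was the reverse of that of Cnr1. Group means were 28.3 ± 3.88 FPKM in WT and 31.1 ± 2.53 in KO (SD, n = 2), a log2 difference of 0.14 (SE 0.11, 95% interval -0.14 to 0.41, limma adjusted p 0.585). The groups overlapped, with KO2 below WT1. In all 4 pairs of libraries of WT1 and WT2 the deposited limits were apart, and so they were in all 4 pairs of KO1 and KO2. An antisense gene overlaps Dagla but shares none of its exon bases.

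Daglb (ENSMUSG00000039206, chr5:143464584-143505942, forward strand), whose product is known mainly from microglia and macrophages, was at 8.93 and 8.70 FPKM in WT1, 7.98 and 7.59 in WT2, 9.53 and 9.21 in KO1, and 7.76 and 8.68 in KO2. The animals numbered 2 were again the lower, by 11.6% in WT and 12.2% in KO, but the technical libraries of KO2 differed by 11.2%. The mean of 8.30 ± 0.725 FPKM in WT and 8.79 ± 0.811 in KO (SD, n = 2) gave a log2 difference of 0.07 (SE 0.09, 95% interval -0.16 to 0.31, limma adjusted p 0.737). Daglb shares 2309 of its 9567 exon bases (24.1%) with Rac1, a small GTPase gene on the opposite strand. Rac1 was far more abundant, at 181 ± 3.29 FPKM in WT and 187 ± 5.80 in KO (SD, n = 2). By animal Rac1 was at 183 FPKM in WT1, 178 in WT2, 191 in KO1 and 183 in KO2, so it too was lower in the animals numbered 2. No strand setting is stated for the counting, so reads of Daglb and Rac1 in that stretch cannot be told apart and the level of Daglb is uncertain.

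Mgll (ENSMUSG00000033174, chr6:88724412-88828360, forward strand), whose product ends most 2-AG signalling in the brain, was the most abundant of the 6. Its level was 45.8 and 44.7 FPKM in WT1, 40.3 and 41.9 in WT2, 47.9 and 49.9 in KO1, and 45.9 and 46.9 in KO2. All 4 KO libraries lay above all 4 WT libraries, although the lowest KO library (45.9) and the highest WT library (45.8) nearly touched. The mean was 43.2 ± 2.97 FPKM in WT and 47.7 ± 1.77 in KO (SD, n = 2), 10.4% higher in KO. The log2 difference of 0.14 (SE 0.06, 95% interval -0.02 to 0.30) did not pass the threshold (limma p 0.0698, adjusted p 0.359), and 27.0% of the tested genes had a larger difference in either direction. Within the groups the animals numbered 2 were the lower, by 9.29% in WT and 5.13% in KO. An antisense gene, Gm26588, shares 3.29% of the exon bases of Mgll and was at 0.820 ± 0.0138 FPKM in WT and 0.698 ± 0.0531 in KO (SD, n = 2).

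Of the genes of the anandamide route, Napepld (ENSMUSG00000044968, chr5:21662901-21701396, reverse strand), which cuts the phospholipid precursor, varied least of all 6. It was at 7.42 and 7.41 FPKM in WT1, 7.31 and 7.17 in WT2, 7.31 and 7.62 in KO1, and 7.53 and 7.87 in KO2. The highest animal was only 1.06 times the lowest, and the deposited limits overlapped for every pair of libraries within a group. By animal KO lay above WT, at 7.59 ± 0.163 against 7.33 ± 0.124 FPKM (SD, n = 2), but 1 KO library lay within the WT range. The log2 difference was 0.04 (SE 0.06, 95% interval -0.10 to 0.19, limma adjusted p 0.752).

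Faah (ENSMUSG00000034171, chr4:115967145-116017926, reverse strand), the hydrolase of anandamide, was at 39.7 and 40.1 FPKM in WT1, 35.9 and 37.1 in WT2, 39.7 and 40.7 in KO1, and 40.0 and 39.4 in KO2. WT2 stood below the other animals, by 8.53% against WT1, while KO1 and KO2 differed by only 1.30% and lay at the level of WT1. The mean of 38.2 ± 2.41 FPKM in WT and 39.9 ± 0.371 in KO (SD, n = 2) gave a log2 difference of 0.06 (SE 0.05, 95% interval -0.07 to 0.20, limma adjusted p 0.613). Without WT2 the log2 difference of Faah was 0.0017, and that of Dagla was 0.0013.

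By level the genes fell into 2 ranges. Over the 4 animals Mgll averaged 45.4 ± 3.27 FPKM, Faah 39.1 ± 1.73, Dagla 29.7 ± 3.13 and Cnr1 29.1 ± 2.39, followed after a 3.40-fold gap by Daglb at 8.55 ± 0.690 and Napepld at 7.46 ± 0.190 (SD, n = 4). Each neighbour in this order was in the same order in all 8 libraries, with ranges over animals that did not overlap, except Dagla and Cnr1. Dagla was above Cnr1 in WT1 and KO1 and below it in WT2 and KO2, so these neighbours did not differ beyond their spread. The place of Daglb in the order is uncertain, because of the exon bases it shares with Rac1. Among the genes above 0 in a library, the 4 more abundant genes lay between the percentiles 88.6 and 94.3, and Daglb and Napepld between 69.6 and 74.6. The transcripts of both hydrolases were therefore more abundant per length than those of the synthesis enzyme of the same route, Mgll over Dagla and Faah over Napepld. Levels of RNA say nothing here of amounts of protein.

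Against the genes as a whole, the 6 members gave no call. None passed the adjusted threshold, which 0.0540% of the 16667 genes did (9 genes). None had an unadjusted limma p under 0.05 either, in a fit where 4.11% of genes did so with a higher and 11.4% with a lower value in KO. All 6 had the higher mean in KO, as did 42.0% of all genes. Both KO animals lay above both WT animals for 2 of the 6, Mgll and Napepld, as for 18.4% of all genes. The reverse, both KO animals below both WT animals, held for none of the 6 and for 30.7% of all genes. The members' median log2 difference was 0.08, and that of all genes -0.02. With 2 animals a group the exact permutation test of FPKM cannot give a p below 0.333. It gave that value, two-sided, for Mgll and Napepld and 0.667 for the other 4.

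The scale of the libraries bears on how many genes lie above or below. With median-of-ratios scaling 50.5% of all genes had the higher mean in KO, with quantile normalization 58.8%, and after rescaling every library to the same total (TPM) 48.7%. The share of higher values among genes with an unadjusted p under 0.05 moved in the same way, from 26.4% to 40.1%, 46.7% and 39.1%. Each of the 6 members kept a higher mean in KO under all of these scalings. Mgll, for example, had log2 differences of 0.17, 0.13 and 0.16 under them.

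**Figure D2:**
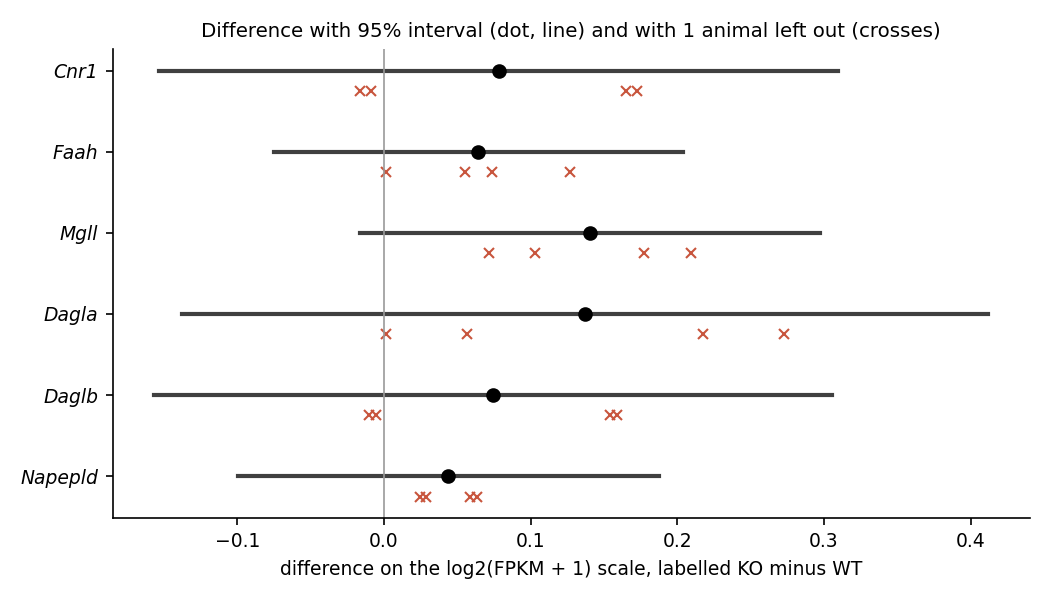
Difference of each gene, labelled KO minus WT, on the log2(FPKM + 1) scale: the dot and line are the limma estimate and its 95% interval over 2 animals a group, and the crosses are the estimates with 1 animal left out. Every interval spans 0, and the crosses of Cnr1 and Daglb fall on both sides of 0, from -0.02 to 0.17 and from -0.01 to 0.16.

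The spread within groups had a pattern of its own. In each group Cnr1 was higher in the animal numbered 2 while Dagla, Daglb, Mgll and Faah were lower in it. Napepld was 2.36% lower in WT2 than in WT1 and 3.09% higher in KO2 than in KO1. Nothing in the labels says that a number marks a shared litter, day or batch, so the repetition of the pattern in both groups is a description of 4 animals. Markers of other cells differed between the same animals. The median deviation of the dentate granule cell markers from their means over the animals was 0.18 in WT1 and between -0.05 and -0.03 in the other animals (log2, 9 genes). That of the excitatory neuron markers was -0.04 in WT1, -0.11 in WT2, 0.11 in KO1 and 0.03 in KO2 (12 genes), so these too were lower in the animals numbered 2, like Mgll and Dagla. The same held for microglia markers, at -0.02, -0.08, 0.11 and -0.05 in WT1, WT2, KO1 and KO2 (11 genes), and for oligodendrocyte markers, at -0.0016, -0.05, 0.09 and -0.04 (11 genes). Markers of interneurons in general were higher in the animals numbered 2, like Cnr1, at -0.04, -0.0036, -0.03 and 0.01 (12 genes). So were thalamus and habenula markers, at -0.02, 0.04, -0.03 and 0.04 (9 genes). Endothelial, choroid plexus and blood markers were higher in them too, and astrocyte and striatal markers lower. Markers of interneurons with cholecystokinin were lower in WT2 than in WT1 and higher in KO2 than in KO1. In bulk tissue fewer cells of a type and less RNA per cell cannot be told apart, and the part of cell composition in the spread of the members was not tested.

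**Figure D3:**
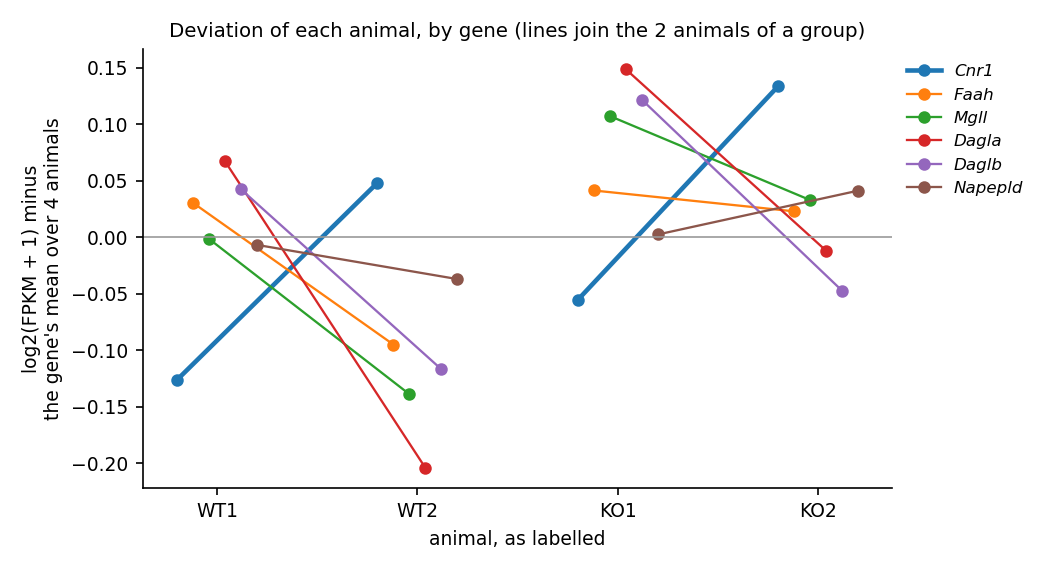
Deviation of each animal from the mean of the gene over the 4 animals, on the log2(FPKM + 1) scale; lines join the animals of a group. The line of Cnr1 climbs from the animal numbered 1 to that numbered 2 by 0.17 in WT and 0.19 in KO, and the lines of Dagla, Daglb, Mgll and Faah descend in both groups.

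Ratios within an animal do not change when a library is multiplied by a factor, as in median-of-ratios scaling or TPM, but they do change under quantile normalization. There the log2 differences were 0.06 for Faah and 0.11 for Napepld (0.06 and 0.04 in the deposited FPKM), and 0.13 for both Dagla and Daglb (0.14 and 0.07). The ratio of Mgll to Dagla, the hydrolase of 2-AG against its main synthesis enzyme, was 1.46 in WT1, 1.61 in WT2, 1.49 in KO1 and 1.58 in KO2. Its mean was 1.53 ± 0.105 in WT and 1.53 ± 0.0675 in KO (SD, n = 2), the groups overlapped, and the genes had higher means in KO by a like amount (10.4% and 9.98%). The ratio of Cnr1 to Dagla separated the animals by number: it was 0.854 in WT1 and 0.848 in KO1, against 1.18 in WT2 and 1.09 in KO2. Group means of that ratio, 1.01 ± 0.228 and 0.968 ± 0.171, overlapped widely.

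Dagla to Daglb was 3.52 and 3.28 in the WT animals and 3.51 and 3.57 in the KO animals. Faah to Napepld was 5.38 and 5.04 in WT and 5.38 and 5.15 in KO. The ratio of Mgll to Faah, the hydrolases of the 2 messengers, was the only one of 5 whose groups did not overlap, at 1.14 and 1.13 in WT and 1.22 and 1.17 in KO. Its log2 difference of 0.08 had an exact two-sided permutation p of 0.333, the smallest that 2 against 2 can give, or 0.833 after Benjamini-Hochberg adjustment over the 5 ratios.

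**Figure D4:**
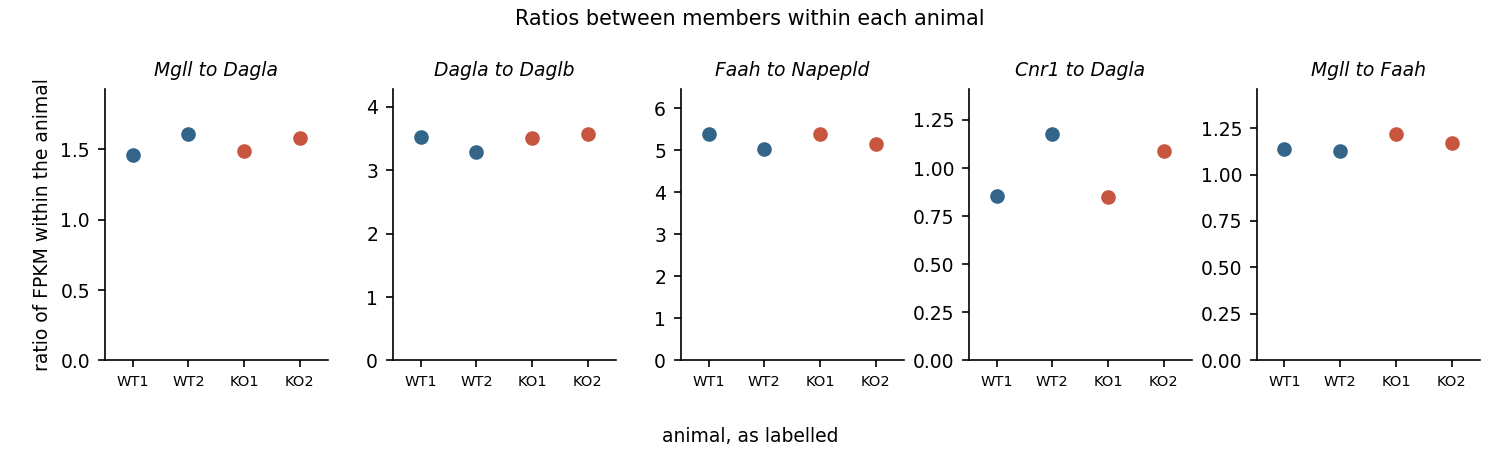
Ratio of FPKM between 2 genes within each animal (blue WT, red labelled KO), 1 panel a ratio, each axis from 0. Cnr1 to Dagla was near 0.85 in the animals numbered 1 and at 1.18 and 1.09 in those numbered 2, while Mgll to Dagla stayed between 1.46 and 1.61.

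The other genes of the pathway were taken from 6 lists of 61 genes. Of these, 50 were tested, and the other 11 were below the minimum, the highest value of any of them being 0.644 FPKM in a single library. None of the 50 passed the adjusted threshold, 5 had an unadjusted limma p under 0.05 with a higher value in KO and 5 with a lower one, and 30 had the higher mean in KO. Over all genes these shares were 4.11%, 11.4% and 42.0%. Both KO animals lay above both WT animals for 16 of the 50 and below them for 12, against 18.4% and 30.7% of all genes. The same shares of all genes stand beside the counts of each list below. The median log2 difference of the 50 genes was 0.02.

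Among receptors, Cnr2, which encodes the CB2 receptor of immune cells, was below the minimum, as were Gpr55, Gpr18, Gpr119 and Trpv1, other proposed targets of these lipids. The 3 tested members were the nuclear receptors Ppard (6.50 ± 0.0378 FPKM in WT, 6.21 ± 0.515 in KO), Ppara (1.04 ± 0.241 and 1.02 ± 0.0592) and Pparg (0.551 ± 0.0617 and 0.526 ± 0.0201; SD, n = 2), none with a limma adjusted p below 0.745. Their median log2 difference was -0.02, or 0.06 with quantile normalization. Cnr1 was thus the only cannabinoid receptor gene of the list above the minimum in these libraries.

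Of 13 genes whose products bind CB1 or carry its signal, all were tested and 8 had the higher mean in KO (median log2 difference 0.04). Sgip1, whose product slows the uptake of CB1 from the surface, was at 52.4 (WT1) and 51.4 (WT2) against 58.7 (KO1) and 55.3 FPKM (KO2; log2 difference 0.13, SE 0.04, limma p 0.0317, adjusted p 0.276). Gnai2, an inhibitory G protein subunit, was at 86.9 and 86.7 FPKM in WT and 78.0 and 80.5 in KO (log2 difference -0.13, SE 0.04, p 0.0164, limma adjusted p 0.228). Wasf1, whose product builds branched actin, had a limma adjusted p of 0.376 (147 ± 10.02 FPKM in WT and 161 ± 5.17 in KO, SD, n = 2). Cnrip1, which encodes a CB1 interacting protein, overlapped between the groups at 43.9 ± 1.13 FPKM in WT and 45.7 ± 2.18 in KO (SD, n = 2).

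The 14 genes listed as drivers of 2-AG synthesis, such as phospholipase C beta and the receptors that activate it, were all tested. Of these, 10 had the higher mean in KO (median log2 difference 0.05). Plcb1, the phospholipase C of forebrain excitatory neurons, had 32.9 and 31.1 FPKM in WT against 38.2 and 36.0 in KO (log2 difference 0.21, SE 0.05, limma p 0.0105, adjusted p 0.196). Plcb4, a related phospholipase abundant in the thalamus and cerebellum, went the other way, from 8.48 and 8.81 FPKM in WT to 6.88 and 6.78 in KO (log2 difference -0.30, SE 0.06, limma p 0.00293, adjusted p 0.126). Chrm1, the M1 muscarinic receptor, was at 56.2 and 51.0 FPKM in WT and 63.3 and 60.2 in KO (log2 difference 0.20, SE 0.06, limma p 0.0196, adjusted p 0.238). Gnaq, the G protein subunit between such receptors and the phospholipase, is named after its value was seen, as the remaining gene of this list with an unadjusted p under 0.05 (44.9 ± 0.628 FPKM in WT and 49.6 ± 1.88 in KO, SD, n = 2, limma adjusted p 0.251). No gene of the list passed the threshold.

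Of 7 other hydrolases and oxygenases of 2-AG or related lipids, 6 were tested, and 4 had the higher mean in KO. Their median log2 difference of 0.04 rested on single libraries: with KO1 represented by its second library alone the median was 0.01, and it was -0.07 in the second technical libraries. Abhd12, a serine hydrolase that also cuts lysophosphatidylserine, was at 131 ± 7.20 FPKM in WT and 143 ± 9.60 in KO, and Abhd6, which hydrolyses 2-AG in the postsynaptic neuron, at 25.2 ± 0.330 and 26.3 ± 0.725 (SD, n = 2). For both the KO animals lay above the WT animals, as for 18.4% of all genes, with limma adjusted p of 0.416 and 0.547. Ptgs2, the cyclooxygenase that oxygenates 2-AG, was at 5.57 and 5.13 FPKM in WT and 6.12 and 6.62 in KO (log2 difference 0.21, SE 0.07, limma adjusted p 0.275). Pnpla6, a lysophospholipase, was at 17.4 and 16.1 FPKM in WT and 14.3 and 14.9 in KO (log2 difference -0.19, SE 0.06, limma adjusted p 0.248). Lipe, the hormone-sensitive lipase, was also lower in both KO animals, at 2.98 and 3.55 FPKM in WT and 2.53 and 2.85 in KO (log2 difference -0.21, SE 0.10, limma p 0.0903, adjusted p 0.392).

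Of 13 other genes of N-acylethanolamines, the lipid class of anandamide, 9 were tested, and the lowest p of the pathway was among them. Plaat3, an acyltransferase that can form the precursor Napepld acts on, had 15.4 and 16.3 FPKM in WT against 12.2 and 11.97 in KO, a log2 difference of -0.36 (SE 0.05, limma p 0.000909, adjusted p 0.0993). Naaa, the lysosomal amidase that acts beside Faah, was at 20.04 and 19.2 FPKM in WT and 17.0 and 16.9 in KO (log2 difference -0.20, SE 0.05, limma p 0.00677, adjusted p 0.170). For both genes the KO animals lay below the WT animals, as for 30.7% of all genes, and neither passed the adjusted threshold. Of the enzymes of routes to anandamide that bypass Napepld, these overlapped between groups: Abhd4 at 26.1 ± 1.07 FPKM in WT and 26.4 ± 1.21 in KO, and Gde1 at 109 ± 1.04 and 109 ± 3.77 (SD, n = 2), with limma adjusted p of 0.902 and 0.962. Inpp5d, a lipid phosphatase listed for another such route, was at 2.81 and 2.99 FPKM in WT and 3.09 and 3.35 in KO, where the groups did not overlap (limma adjusted p 0.521). The list's median log2 difference was 0.01, and it was -0.07 without WT2.

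Of 6 genes of proteins that carry endocannabinoids inside cells, 5 were tested and 3 had the higher mean in KO (median log2 difference 0.02, but -0.05 without WT2 and -0.04 without KO2). The fatty acid binding protein genes Fabp5 (72.5 ± 0.146 FPKM in WT, 77.7 ± 3.32 in KO) and Fabp3 (44.8 ± 0.541 and 50.6 ± 5.50; SD, n = 2) were higher in both KO animals, and the chaperone gene Hspa1a lower (7.73 ± 0.843 and 6.58 ± 0.102). Their limma adjusted p values were 0.366, 0.385 and 0.344.

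**Figure D5:**
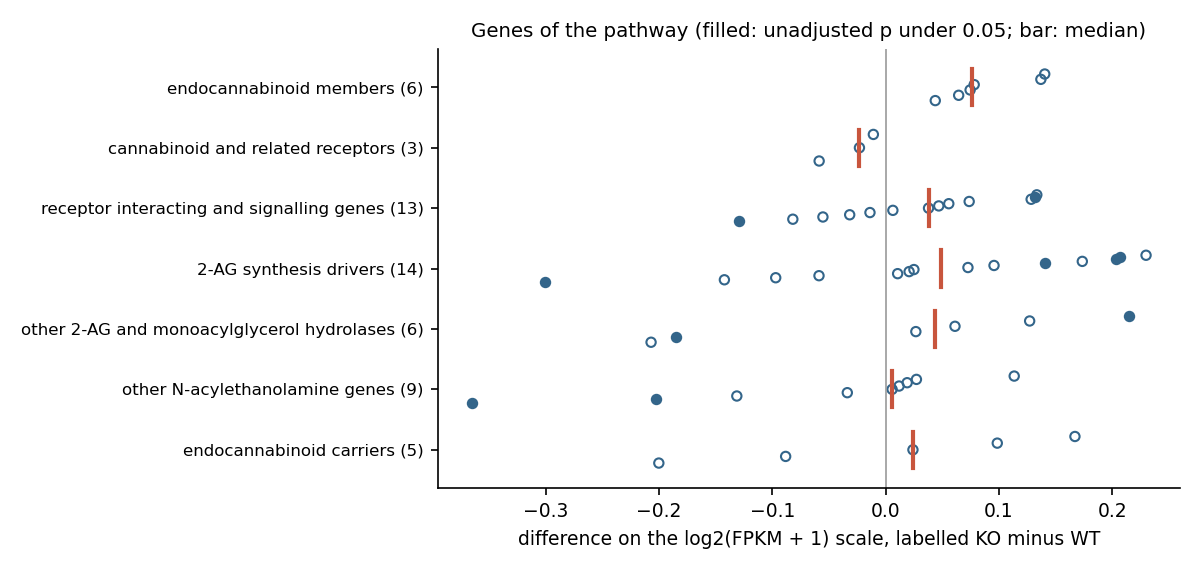
Difference of each tested gene, labelled KO minus WT, on the log2(FPKM + 1) scale, for the 6 members and the 6 lists of other pathway genes (number tested in brackets); filled circles have an unadjusted limma p under 0.05, and red bars are medians. All 6 members lie right of 0 and none is filled, while single genes of the lists reach -0.36 (Plaat3) and 0.23.

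The genes whose pattern was most like that of Cnr1 and of Mgll over the libraries were different. Over the 8 libraries, on the log2 scale and among 14491 tested genes with a mean of at least 1 FPKM, Cnr1 was closest to Prkacb (Pearson r 0.986), which encodes a catalytic subunit of protein kinase A, to Neu4 (0.977), a sialidase gene, and to Armh4 (0.975). Prkacb was at 66.1 and 66.0 FPKM in WT1, 69.3 and 69.9 in WT2, 68.3 and 67.4 in KO1, and 72.7 and 71.3 in KO2. Like Cnr1, it was higher in the animals numbered 2, which follows from its choice by correlation with Cnr1. Mgll was closest to Dpp6 (r 0.990) and Kcna1 (0.990), which encode an auxiliary and a pore-forming subunit of potassium channels, and to Ppp1r16b (0.985), a phosphatase subunit gene. Kcna1 was at 20.1 and 19.7 FPKM in WT1, 18.0 and 18.4 in WT2, 21.5 and 22.2 in KO1, and 20.6 and 21.2 in KO2. Its order of animals was that of Mgll, which likewise follows from the choice.

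A correlation above 0.9 was reached by 71 genes with Cnr1 (0.490% of those searched) and by 250 genes with Mgll (1.73%). With the other members, Mgll had r of 0.91 with Faah, 0.90 with Dagla, 0.75 with Daglb and 0.60 with Napepld. Cnr1 had r of -0.55 with Dagla, -0.61 with Daglb, -0.34 with Faah, -0.22 with Mgll and 0.23 with Napepld. The 8 libraries are 4 animals measured in duplicate, so these are descriptions of 4 patterns of values.

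Markers of the cells that carry the system, and of tissue beside the hippocampus, were compared between the same groups. Of 10 markers of interneurons with cholecystokinin, the cells richest in CB1, 6 had the higher mean in KO, as did 42.0% of all genes. Their median log2 difference was 0.05, and between 0.0025 and 0.10 over the alternative settings. At an unadjusted limma p under 0.05, 2 of the 10 were higher in KO and 1 was lower, against 4.11% and 11.4% of all genes. These were Cck and Vip (6.83 ± 1.16 FPKM in WT and 9.42 ± 0.671 in KO), and the lower Sncg (6.03 ± 0.178 and 4.18 ± 0.713, SD, n = 2). None passed the adjusted threshold. Summed by library, as for every list below, the 10 came to 464 to 489 FPKM in the WT libraries and 515 to 565 in the KO libraries. That sum is mostly Cck itself, which excitatory neurons also express, at 361 ± 10.9 FPKM in WT and 420 ± 38.4 in KO (SD, n = 2, limma adjusted p 0.265), while Slc17a8, the vesicular glutamate transporter of these interneurons, was at 1.16 ± 0.196 and 1.09 ± 0.0728 (adjusted p 0.867). The 12 markers of interneurons in general overlapped, at 677 to 695 FPKM in WT and 674 to 694 in KO. All 12 markers of excitatory neurons had the higher mean in KO, against 42.0% of all genes, and 4 had an unadjusted limma p under 0.05, against 4.11%. Their median log2 difference was 0.14, and they summed to 2334 to 2547 FPKM in WT and 2621 to 2759 in KO. This median equals the log2 difference of Mgll and of Dagla to 2 decimals; its part in the members' values was not tested. Without KO1 the median of the excitatory markers was 0.08. Of 11 microglia markers, 9 had the higher mean in KO (42.0% of all genes did), with a median of 0.10, but without KO1 that median was -0.01.

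The 16 choroid plexus markers were lower in both KO animals, as were 30.7% of all genes, none past the threshold, with sums of 4334 to 7678 FPKM in WT and 306 to 1287 in KO. The most abundant of them, the transthyretin gene Ttr, reached 3366 (WT1) and 6325 FPKM (WT2), against 180.0 (KO1) and 934 (KO2). The 5 blood markers were lower too, 2 of them past the threshold, as were 0.0540% of all genes (summing to 284 to 318 FPKM in WT, 149 to 158 in KO). With the libraries rescaled after removal of these genes and of mitochondrial genes, the log2 differences of the members were 0.08 for Cnr1, 0.14 for Mgll and Dagla, 0.06 for Faah, 0.08 for Daglb and 0.05 for Napepld. The striatal marker Ppp1r1b passed the threshold at 50.9 ± 1.98 FPKM in WT and 28.2 ± 0.220 in KO (SD, n = 2, log2 difference -0.83, limma adjusted p 0.0372), and the 12 striatal markers summed to 120.0 to 131 FPKM in WT and 91.6 to 93.9 in KO. The part of these tissues in the members' values was not tested otherwise. No gene of the marker lists was at 0 in all libraries. Median log2 differences of the remaining lists were -0.03 for dentate granule cells, -0.03 for astrocytes, 0.08 for oligodendrocytes, -0.06 for endothelial cells and pericytes, -0.01 for neocortex and -0.06 for thalamus and habenula. Except for oligodendrocytes, each of these medians, like that of the striatal markers (-0.06), changed sign under at least 1 of the scalings named above. The oligodendrocyte median was -0.03 without KO1, and the dentate median was 0.09 without WT1 and -0.16 without WT2.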

How the data were processed

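The authors deposited 1 gene table a library in FPKM, with confidence limits and a status, per the file headers. Bowtie (version 1), HISAT and mm10 appear in the submitters' processing notes; for the FPKM program and strand setting, the sources used here give none. Without counts, limma (version 3.58.1, R 4.3.3, trended variance) was fitted to log2(FPKM + 1). The 53 rows repeating a gene were summed, the 12 values with another status (none in the members) were treated as missing, and technical libraries were averaged per animal. Depth is known only roughly, from the limits. The fit was tested on simulated data. The members and all lists were chosen with earlier results of these data known. Named beside the members were Ptk2b, 7 pathway genes fixed by name (Abhd6, Abhd12, Cnrip1, Sgip1, Abhd4, Gde1 and Naaa), up to 3 genes of each pathway list with the smallest p, the 3 genes most like Cnr1 and Mgll, and Ttr, Cck, Slc17a8 and Ppp1r1b among markers. The markers Vip and Sncg were named after their values were seen. Overlaps came from GENCODE M21. RefSeq promoter sequences were matched by symbol for 5 of 6 members (not Dagla). Alternatives were other scalings, minimums and pseudocount, single technical libraries, all libraries, no variance trend, the animal number as a block, and each animal left out.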

Additional observations from a re-analysis of the deposited data

How the results depend on the processing

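None of the 6 genes passed the threshold in any of 17 alternatives each. Of these 102 values, 98 kept their direction. The other 4 came from leaving out an animal: Cnr1 ranged from -0.016 to 0.17 (-0.0091 without WT1, -0.016 without KO2) and Daglb from -0.010 to 0.16 (-0.0051 without WT2, -0.010 without KO1). Mgll ranged from 0.07 to 0.21 with limma adjusted p from 0.126 to 0.801. The number of genes called by limma, 9 in the fit reported, depended on the setting: 14 with a pseudocount of 0.1, 0 with no minimum (3741 at an unadjusted p under 0.05), 19 and 35 from the first and second technical libraries, 20 when KO1 was its second library alone, 1 with no variance trend, 1086 from all 8 libraries with the animal as a random effect (a fit in which Ptk2b passed, at 0.33 and adjusted p 0.00633), and 0 to 128 without 1 animal (0 without WT1 and without WT2, 1 without KO1, 128 without KO2). The cause was not tested. In the fit of all 8 libraries, 1 correlation between the libraries of an animal is shared by all genes. Technical libraries then count as partly separate measurements, so its calls, that of Ptk2b included, do not rest on the spread between animals alone. With the animal number as a replicate block 184 genes were called, 8 of them higher, and no member (Mgll adjusted p 0.211, Dagla 0.269, Cnr1 0.388). The labels do not say that the numbers pair the animals. Deviations of same-numbered animals correlated at 0.107 over 16667 genes, and at 0.185 over the 14455 with a mean log2(FPKM + 1) of at least 1. The log2 ratio of Mgll to Dagla ranged from -0.068 to 0.072 without 1 animal (-0.068 without WT1, -0.043 without KO2) and was -0.023 in the first technical libraries. Dagla to Daglb was -0.0032 in the second technical libraries. Faah to Napepld ranged from -0.031 to 0.064 (-0.031 without WT2, -0.015 without KO1) and was -0.034 in the second technical libraries. Cnr1 to Dagla ranged from -0.29 to 0.17 (0.17 without WT2, 0.12 without KO1). The deposited limits lay 3.70% to 7.17% of a member's value on each side of it. They are limits of 1 library, so 2 libraries that differ by less than this cannot be told apart by them. The smallest detectable difference was not determined.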
